A study of Mus musculus with 12 samples.

Results

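The 10 genes described here code for liver enzymes that make nicotinamide adenine dinucleotide (NAD), that methylate or oxidize nicotinamide, or that pass reducing equivalents between NADH and NADPH in mitochondria. They are Haao, Qprt and Acmsd of the route from tryptophan, Nampt and Naprt of the salvage routes, the mitochondrial NAD kinase Nadk2, the transhydrogenase Nnt, the nicotinamide methyltransferase Nnmt, and the aldehyde oxidases Aox1 and Aox3. They were chosen by function from the 16346 genes of the table, after Ensembl identifiers were matched to mouse symbols, when their normalized counts across the 6 groups were already known. Which of those counts decided the choice is not recorded. The levels, fold changes and calls of these 10 genes are therefore given as a description with no test, and nothing is read from how many of them were called. All 10 entered the fit, which took the 12366 genes averaging at least 10 normalized counts.

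NAD carries electrons in fuel oxidation and is consumed by sirtuins and poly-ADP-ribose polymerases, which release nicotinamide. Liver can build NAD from tryptophan, a route that few other tissues run in full, and can recycle nicotinamide and nicotinic acid. Nicotinamide that is not recycled is methylated or oxidized and leaves in the urine. In mitochondria, the NAD kinase supplies NADP, and the transhydrogenase uses the proton gradient to reduce it to NADPH, which feeds the thioredoxin and glutathione systems.

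Liver RNA was sequenced from 12-week-old C57BL6J mice in 6 groups of 2. Control mice were Med13 fl/fl. MED13-LKO mice carried the same floxed alleles together with Cre driven by the albumin promoter, a knockout that the authors call selective for hepatocytes. Whether other liver cells lost the gene was not tested. In each genotype, 2 mice were fasted overnight for 16 h, 2 were refed for 4 h with normal chow and 30% sucrose in the drinking water, and 2 were refed for 4 h with the chow and 30% fructose. The values are normalized counts per gene as deposited by the authors. P-values from these libraries measure only the spread between mice.

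The libraries labelled MED13-LKO were checked against the targeted gene and against liver markers. Med13 had normalized counts of 674.4 and 796.3 (fasted), 577.6 and 672.6 (sucrose), and 606.7 and 778 (fructose) in control mice. Libraries labelled MED13-LKO had 808 and 898.9, 646.4 and 717.1, and 680.6 and 1055, so its RNA was not lower there (log2 fold change 0.22, adjusted p = 0.201 by limma, Benjamini-Hochberg). That value became 0.32 and was called when fructose mouse 1 labelled MED13-LKO was left out (adjusted p = 0.037 by limma), and 0.53 with a call after rescaling to equal totals (adjusted p = 0.00344 by limma). Values summed per gene carry no information on loss of single exons. The total of normalized counts was 21060000 to 24150000 in control libraries and 17310000 to 18740000 in libraries labelled MED13-LKO. The reads behind them, estimated from the common step between low values of genes with 1 transcript, were 18760000 to 21410000 and 16090000 to 24230000. The 5 hepatocyte markers (Alb, Apoa1, Ttr, Cps1 and Serpina1c) were all called lower in libraries labelled MED13-LKO, with summed normalized counts of 1770000 to 2120000 against 2360000 to 3020000 in control libraries. Of other markers, 2 of 5 of Kupffer cells (sums of 2900 to 4040 in control libraries and 3900 to 5210 in those labelled MED13-LKO) and 3 of 5 of sinusoidal endothelium (3060 to 3640 and 3550 to 5020) were called higher. Lower were 2 of 5 of stellate cells (4880 to 6200 and 4500 to 5480), 1 of 4 of cholangiocytes (666 to 876 and 534 to 849) and 4 of 5 of red cells (8910 to 14900 and 5730 to 11200). Neither of 2 tested neutrophil genes (list sums of 21.8 to 45.6 and 30 to 88.3) was called, nor the 1 tested adipocyte gene (list sums of 140 to 383 and 163 to 202), and no marker was at 0 in all libraries. In the same comparison, averaged over the diets, 12.1% of all genes were called higher and 13.2% lower. In whole liver, fewer cells of a type and less RNA per cell cannot be told apart, and the part of these marker differences in the values below was not tested. The median of all genes differed between the genotypes by 0.006 on the log2 scale with the authors' scaling, from which all values below come, and by 0.32 after rescaling to equal totals. The markers are given with the authors' scaling only, and their calls may differ under the other.

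Averaged over the 3 diets, 8 of the 10 genes were called between the genotypes, beside 25.3% of all genes tested. Nnt, Qprt and Nnmt were higher in libraries labelled MED13-LKO, a direction called for 12.1% of all genes. Acmsd, Aox3, Haao, Aox1 and Naprt were lower, a direction called for 13.2% of all genes. The median log2 fold change was -0.14 over the 10 genes and 0.006 over all genes. After rescaling to equal totals, 5 were called higher and 3 lower: Nampt and Nadk2 joined the higher genes, Aox1 (-0.09) and Naprt (0.10) were no longer called, the sign of Naprt turned, and the other 6 kept their direction and call. In 4 of the 10, Nnt, Qprt, Haao and Aox3, the 6 libraries labelled MED13-LKO did not overlap with the 6 control libraries, which held for 8.85% of all genes.

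**Figure D1:**
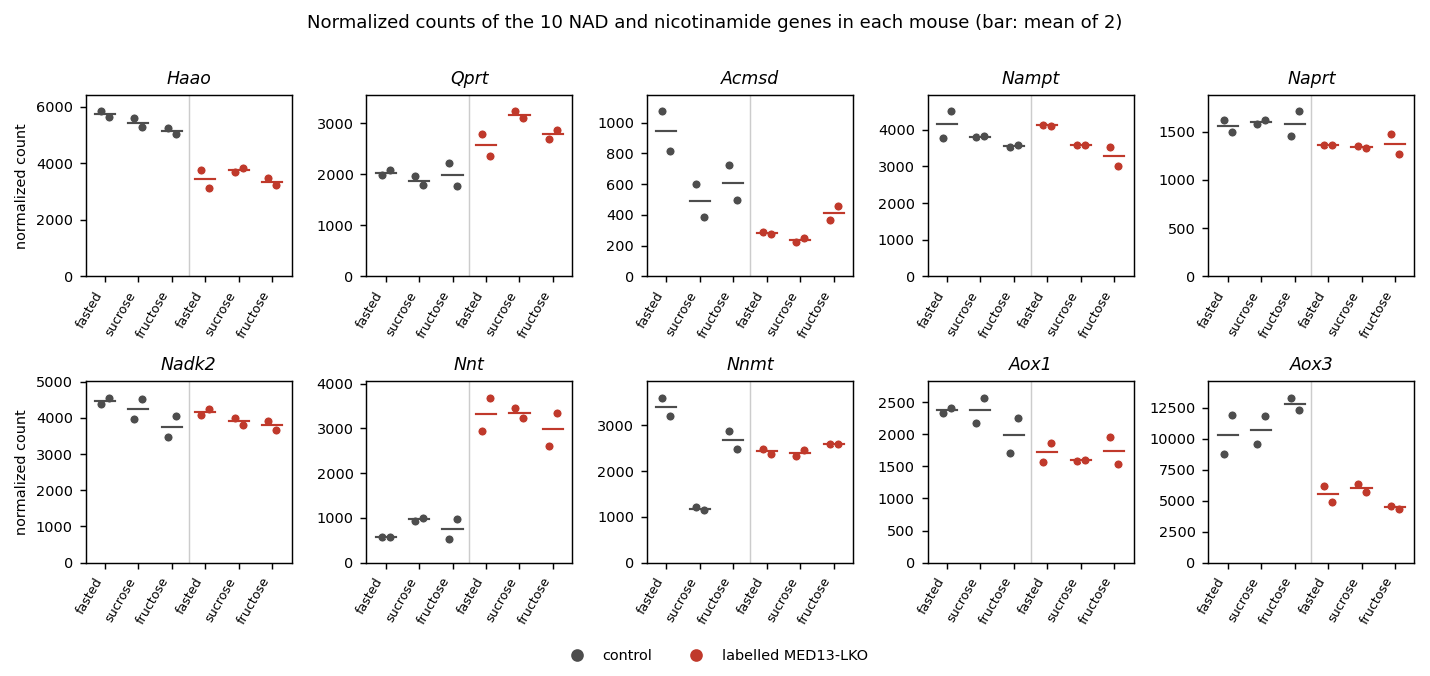
Normalized counts (vertical axes, each starting at 0) of the 10 genes in each of the 12 mice, with control mice in grey and mice labelled MED13-LKO in red, and a bar at the mean of each group of 2. Nnt, Qprt, Haao and Aox3 separate the genotypes fully, and Nnmt is lowest in the 2 sucrose-fed control mice.

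Haao codes for the dioxygenase that produces the precursor of quinolinate, and is on the minus strand of chromosome 17 from 83831156 to 83847963 (GRCm38). Its normalized counts in control mice were 5831 and 5631 fasted, 5598 and 5261 after sucrose, and 5242 and 5025 after fructose. Mice labelled MED13-LKO had 3764 and 3138 fasted, 3691 and 3836 after sucrose, and 3469 and 3232 after fructose. The lowest control mouse lay above the highest mouse labelled MED13-LKO, and no feeding comparison was called. Between genotypes its log2 fold change was -0.63 ± 0.05 (standard error) over the diets, which is 0.647 times the control level, and ran from -0.74 fasted to -0.53 with sucrose. The call with sucrose was lost without control sucrose mouse 1 (-0.48) or sucrose mouse 1 labelled MED13-LKO (-0.50), and after rescaling to equal totals (-0.24).

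Qprt codes for quinolinate phosphoribosyltransferase, which turns quinolinate into nicotinic acid mononucleotide and so commits it to NAD (chromosome 7, minus strand, 127107114 to 127122226). Control mice had 1981 and 2079 fasted, 1964 and 1788 after sucrose, and 2218 and 1767 after fructose. Mice labelled MED13-LKO had 2790 and 2365, 3235 and 3096, and 2697 and 2865. Every mouse labelled MED13-LKO was above every control mouse, the opposite direction to Haao one step before it. Over the diets Qprt had a log2 fold change of 0.53 ± 0.07 (1.44-fold), and it was 0.76 with sucrose, 0.49 with fructose and 0.34 fasted. Only the first 2 of these single diets were called in the fit of all 12 libraries. The call with sucrose was lost without sucrose mouse 1 labelled MED13-LKO (0.72). The call with fructose was lost on leaving out any of 7 mice, namely control fructose mouse 2 (0.33), either fructose mouse labelled MED13-LKO (0.53 and 0.45), either fasted control mouse or either sucrose mouse labelled MED13-LKO (0.49 each). The fasted value, unchanged at 0.34, became a call without either fructose control mouse, and 0.68 with a call after rescaling to equal totals.

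Acmsd codes for the decarboxylase that takes the precursor of quinolinate away from NAD synthesis (chromosome 1, plus strand, 127729413 to 127767978). Its normalized counts were 1074 and 818.4 in fasted control mice, 603.3 and 383.7 after sucrose, and 722.7 and 496.1 after fructose. Mice labelled MED13-LKO had 286.1 and 276.6 fasted, 221.1 and 251 after sucrose, and 368.3 and 459.4 after fructose. Fasted control mice were the highest. The genotypes did not overlap within a diet but did across diets, where fructose mouse 2 labelled MED13-LKO lay above sucrose control mouse 2. Acmsd had a log2 fold change of -1.10 ± 0.14 over the diets, and the value shrank in size from -1.73 fasted to -1.03 with sucrose and -0.54 with fructose, the last not called. The call with sucrose was lost without control sucrose mouse 1 (-0.70), without either sucrose mouse labelled MED13-LKO (-0.94 and -1.12) or without either fasted one (-1.03 each), after rescaling to equal totals (-0.74), and with only the 4 sucrose libraries fitted.

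The promoters of Haao and Qprt are shown because these genes act in consecutive steps and differ in direction between the genotypes. Each is given 5′ to 3′ from RefSeq on GRCm38.p6, from 250 bases before the RefSeq start to 50 bases from it, and capitals mark a match to the nuclear receptor half-site AGGTCA on either strand.
Haao, chr17:83846741-83847040, minus strand: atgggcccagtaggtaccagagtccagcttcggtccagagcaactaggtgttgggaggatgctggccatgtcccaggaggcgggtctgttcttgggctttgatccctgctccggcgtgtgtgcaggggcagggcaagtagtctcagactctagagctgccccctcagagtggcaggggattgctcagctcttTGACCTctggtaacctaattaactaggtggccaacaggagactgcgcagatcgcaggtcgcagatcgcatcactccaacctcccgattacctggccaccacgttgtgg
Qprt, chr7:127121980-127122279, minus strand: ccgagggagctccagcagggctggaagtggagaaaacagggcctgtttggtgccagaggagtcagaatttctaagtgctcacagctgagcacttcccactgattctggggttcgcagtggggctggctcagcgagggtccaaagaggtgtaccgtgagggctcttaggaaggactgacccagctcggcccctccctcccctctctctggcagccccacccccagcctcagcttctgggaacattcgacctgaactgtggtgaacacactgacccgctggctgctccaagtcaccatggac

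Of these 2 promoters, that of Haao held the half-site, 58 bases before the RefSeq start, as TGACCT on the shown strand, and that of Qprt did not. It occurs in 16.3% of 32851 promoters of this length. The E-box CACGTG, found in 7.15% of them, and the forkhead core TGTTTAC, found in 3.65%, were searched on both strands and matched neither. The RefSeq starts used here lie inside the GENCODE gene spans given above, which begin farther upstream. A match of letters is a description of the window and not a measured site.

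Nampt codes for the rate-limiting enzyme of nicotinamide salvage (chromosome 12, plus strand, 32819545 to 32853349). Control mice had 3788 and 4504 fasted, 3792 and 3840 after sucrose, and 3525 and 3591 after fructose, and mice labelled MED13-LKO had 4132 and 4105, 3593 and 3599, and 3543 and 3024. The genotypes overlapped in the fasted and fructose-fed mice, and the average log2 fold change of -0.07 ± 0.06 was not called. With fructose the values were below those of fasted mice in both genotypes, with log2 fold changes of -0.22 in control mice and -0.33 in those labelled MED13-LKO. Neither was called, although the second became a call (-0.45) without fructose mouse 1 labelled MED13-LKO.

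Naprt codes for the nicotinic acid phosphoribosyltransferase (chromosome 15, minus strand, 75890956 to 75894481). Control mice had 1626 and 1495 fasted, 1580 and 1624 after sucrose, and 1451 and 1712 after fructose, and mice labelled MED13-LKO had 1359 and 1360, 1349 and 1328, and 1482 and 1273. Of the mice labelled MED13-LKO, 1 fed fructose overlapped with the control range. The log2 fold change of -0.22 ± 0.06 over the diets was called, but no single diet was. It fell short of a call on leaving out any of 6 mice, which were control fasted mouse 1 (-0.20), control sucrose mouse 2 (-0.21), fasted mouse 2 (-0.22), sucrose mice 1 and 2 (-0.22 and -0.21) and fructose mouse 2 (-0.18) labelled MED13-LKO. It turned to 0.10 when the libraries were rescaled to equal totals, against a median of 0.32 for all genes, so Naprt kept its place below the median gene. Of the 31-base subsequences of Naprt, 10.25% occur in other genes, chiefly Eef1d.

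Nadk2 codes for the mitochondrial NAD kinase (chromosome 15, plus strand, 9071260 to 9110891). Control mice had 4384 and 4560 fasted, 3982 and 4528 after sucrose, and 3462 and 4049 after fructose, and mice labelled MED13-LKO had 4082 and 4258, 4005 and 3815, and 3913 and 3678. The ranges overlapped, and the log2 fold change of -0.07 ± 0.05 was not called. After rescaling to equal totals, Nampt and Nadk2 were each called, at 0.25, which is below the median of all genes under that scaling.

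Nnt codes for nicotinamide nucleotide transhydrogenase of the inner mitochondrial membrane (chromosome 13, minus strand, 119335448 to 119408997). The C57BL/6J strain is known for an internal deletion in this gene. Fasted control mice had 575.1 and 566.4, control mice with sucrose 929.9 and 1004, and control mice with fructose 528.6 and 968.6. Mice labelled MED13-LKO had 2952 and 3687 fasted, 3462 and 3233 after sucrose, and 2617 and 3341 after fructose. The lowest mouse labelled MED13-LKO was far above the highest control mouse, whatever the diet.

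Between genotypes the log2 fold change of Nnt was 2.12 ± 0.13 over the diets (4.35-fold), the largest in size of the 10. It was 2.53 fasted, 1.79 with sucrose and 2.05 after fructose, and ran from 1.98 to 2.27 over the diets with each of the 12 mice left out in turn. The value with fructose was not called when only the 4 fructose libraries were fitted. In control mice Nnt was 0.76 higher on the log2 scale with sucrose than fasted, which was not called with all 12 libraries and was called at the same value without either fructose control mouse. With fructose it was 0.33 higher, and 0.76 with a call when control fructose mouse 1, the lower of the pair, was left out. The GENCODE M21 annotation of GRCm38 holds a second entry named Nnt, ENSMUSG00000116207, over the same stretch (119335528 to 119408952, 17 exons), and 47.84% of the 31-base subsequences of the entry reported here, ENSMUSG00000025453, also occur in other genes, most of all in that one. The second entry was not analysed here, and its reads and those of the first could have been split. The values are per gene, and which Nnt allele or which exons gave the reads was not tested.

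Genes next to Nnt on chromosome 13 were set beside it. Of 11 genes tested within 5 Mb, 3 were called between genotypes over the diets (27.3%, against 25.3% of all genes), with a median log2 fold change of -0.02. Distances were taken between the lower coordinates of the gene spans. For Nnt, on the minus strand, that is the end of the gene and not its start. All 3 called genes lie 0.153 to 0.375 Mb from Nnt by this measure, on the same side of it. Genes that were not called lie on both sides. Nim1k, a protein kinase gene 0.375 Mb from Nnt, had 17.4 to 35 in control mice and 59.2 to 75.7 in mice labelled MED13-LKO (log2 fold change 1.40 ± 0.15, adjusted p = 0.000149 by limma, Benjamini-Hochberg), with no overlap. Tmem267 was higher by 0.56 (adjusted p = 0.0166 by limma), which was no longer called without sucrose mouse 2 labelled MED13-LKO (0.50). Hmgcs1, which codes for the cytosolic synthase at the start of sterol synthesis, was lower by -0.36 (adjusted p = 0.00642 by limma), and after rescaling to equal totals was at -0.04 and not called. Paip1, the tested gene nearest to Nnt, at 0.093 Mb between the lower coordinates, had a log2 fold change of -0.06 and was not called. Within 10 Mb, 4 of 25 genes were called (16.0%), the other being Plk2 at 0.29 (adjusted p = 0.0448 by limma), whose call was lost on leaving out any of 9 mice.

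**Figure D2:**
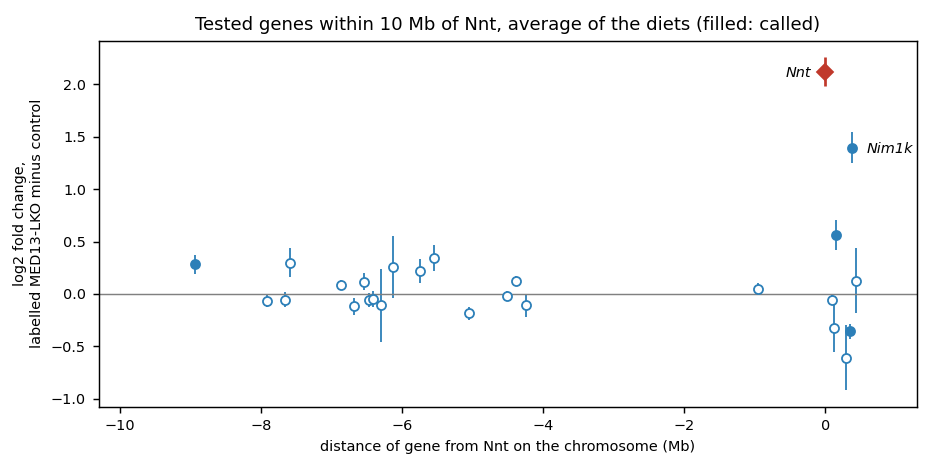
Log2 fold change between genotypes averaged over the diets (vertical axis, with standard errors) against distance from Nnt in Mb (horizontal axis, between lower coordinates) for the 25 genes tested within 10 Mb. Filled circles are called genes and the red diamond is Nnt. Nim1k at 1.40 is the nearest in size to Nnt at 2.12, and the other genes near Nnt lie between -0.61 and 0.56.

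Nnmt codes for nicotinamide N-methyltransferase, which spends S-adenosylmethionine on nicotinamide (chromosome 9, minus strand, 48591877 to 48605153). Fasted control mice had 3602 and 3196, control mice with sucrose 1216 and 1141, and control mice with fructose 2872 and 2488. Mice labelled MED13-LKO had 2489 and 2382 fasted, 2336 and 2468 after sucrose, and 2583 and 2593 after fructose. The 2 sucrose-fed control mice stood below the other 10 libraries, and the 6 mice labelled MED13-LKO lay within 2336 to 2593.

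In control mice Nnmt was lower with sucrose than fasted by a log2 fold change of -1.53 ± 0.09, to 0.347 times the fasted level, and with fructose by -0.34 ± 0.09, which was not called. In mice labelled MED13-LKO the changes were -0.02 with sucrose and 0.09 after fructose. The response to sucrose differed between the genotypes by 1.51 ± 0.13, one of 18 interactions called (0.146% of all genes), and Nnmt was the only one of the 10 genes among them. It ran from 1.42 to 1.59 with each mouse left out in turn. Nnmt was also the only one of the 10 called between the sugars, with 0.65 ± 0.06 higher values with fructose than with sucrose averaged over the genotypes, where 0.0404% of all genes were called. That call was lost without sucrose mouse 1 (0.63), sucrose mouse 2 (0.67) or fructose mouse 2 (0.64) labelled MED13-LKO, and when the fasted libraries were left out of the fit. The gap between the sugars was wide in control mice (group means 2680 with fructose and 1178 with sucrose). It was narrow in mice labelled MED13-LKO (2588 and 2402). Between the genotypes the log2 fold change of Nnmt was -0.48 fasted, 1.03 with sucrose and -0.05 with fructose. The fasted call was lost without control fasted mouse 1 (-0.39), without fasted mouse 2 labelled MED13-LKO (-0.45) and after rescaling to equal totals (-0.14). Averaged over the diets Nnmt was 0.17 ± 0.05 higher, a call that was kept on leaving out control fasted mouse 1 or control fructose mouse 1 and lost on leaving out any of the other 10 mice (0.13 to 0.18).

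Aox1 and Aox3 code for aldehyde oxidases, molybdenum enzymes that oxidize N-methylnicotinamide to pyridones, and are neighbours on the plus strand of chromosome 1 (58029931 to 58106413 and 58113130 to 58200698). For Aox3, control mice had 8738 and 11940 fasted, 9586 and 11879 after sucrose, and 13325 and 12361 after fructose. In those labelled MED13-LKO the values were 6159 and 4920, 6376 and 5693, and 4568 and 4367. The genotypes did not overlap, and the widest gap was with fructose, where control mice were highest and mice labelled MED13-LKO lowest. Aox3 had a log2 fold change of -1.08 ± 0.09 over the diets (0.473 times control), -0.89 fasted, -0.83 with sucrose and -1.52 with fructose. The fasted call was lost without control fasted mouse 2 (-0.67) or fasted mouse 2 labelled MED13-LKO (-0.73), and the sucrose call without control sucrose mouse 2 (-0.67) or either sucrose mouse labelled MED13-LKO (-0.91 and -0.74).

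For Aox1, control mice had 2335 and 2408 fasted, 2174 and 2569 after sucrose, and 1709 and 2251 after fructose, and mice labelled MED13-LKO had 1570 and 1863, 1586 and 1599, and 1954 and 1537. The overlap came from the fructose-fed mice. The log2 fold change of -0.41 ± 0.09 over the diets was called and became -0.09 with no call after rescaling to equal totals, where it stayed below the median of 0.32. The changes of -0.47 fasted and -0.57 with sucrose were not called with all libraries and were called without either fructose control mouse, the second also with only the 4 sucrose libraries fitted. In other genes occur 1.21% of the 31-base subsequences of Aox1 and 0.38% of those of Aox3.

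**Figure D3:**
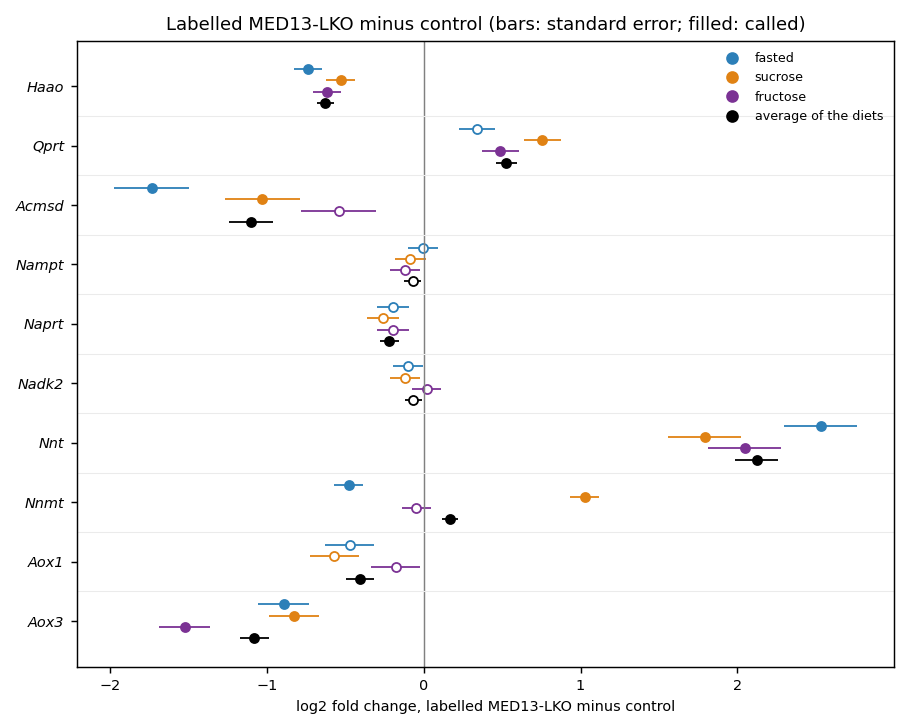
Log2 fold change, labelled MED13-LKO minus control, of the 10 genes (horizontal axis) in fasted, sucrose-fed and fructose-fed mice and averaged over the diets, with standard errors and filled circles for called changes. Nnt lies to the right at 1.79 to 2.53 in every diet, Haao and Aox3 lie to the left in every diet, and Nnmt crosses 0, from -0.48 fasted to 1.03 with sucrose.

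Within single diets, 5 of the 10 genes were called between genotypes in fasted mice (Nnt higher, and Nnmt, Acmsd, Haao and Aox3 lower), beside 8.98% of all genes. With sucrose 6 were called (Nnmt, Nnt and Qprt higher, and Acmsd, Haao and Aox3 lower), beside 6.03%, and with fructose 4 (Nnt and Qprt higher, and Haao and Aox3 lower), beside 7.69%. After rescaling to equal totals the counts were 3 higher and 3 lower fasted, 3 and 1 after sucrose, and 3 and 2 after fructose. The fasted count became 3 without fasted mouse 2 labelled MED13-LKO, and the sucrose count 2 without sucrose mouse 1 labelled MED13-LKO. With only the 4 fructose libraries fitted, 1 of the 10 was called.

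Feeding was compared with fasting within each genotype. The authors' methods give a later hour of killing for fed mice than for fasted mice. Here and below, feeding and time of day therefore cannot be told apart. Sucrose against fasting in control mice was called for Nnmt and Acmsd, both lower, beside 8.57% of all genes. The change of Acmsd was -0.96 ± 0.24, and its call was lost on leaving out any of 7 mice: control fasted mice 1 and 2 (-0.77 and -1.16), control sucrose mouse 2 (-0.64), and the 4 fasted and sucrose mice labelled MED13-LKO (-0.96 each). Fructose against fasting in control mice was called for 0 of the 10, with 3 at an unadjusted p under 0.05 in limma, beside 5.6% of all genes called. In mice labelled MED13-LKO, 0 were called with sucrose (1 unadjusted, 5.71% of all genes called) and 0 after fructose (2 unadjusted, 6.53%). No response to fructose was called as different between genotypes among the 10 (3 unadjusted, 0.0243% of all genes called). Of these, Acmsd had the largest difference, at 1.19 ± 0.34, with a change of -0.65 in control mice and 0.55 in mice labelled MED13-LKO. The genotype and feeding comparisons share libraries, since the fasted mice of each genotype enter both.

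**Figure D4:**
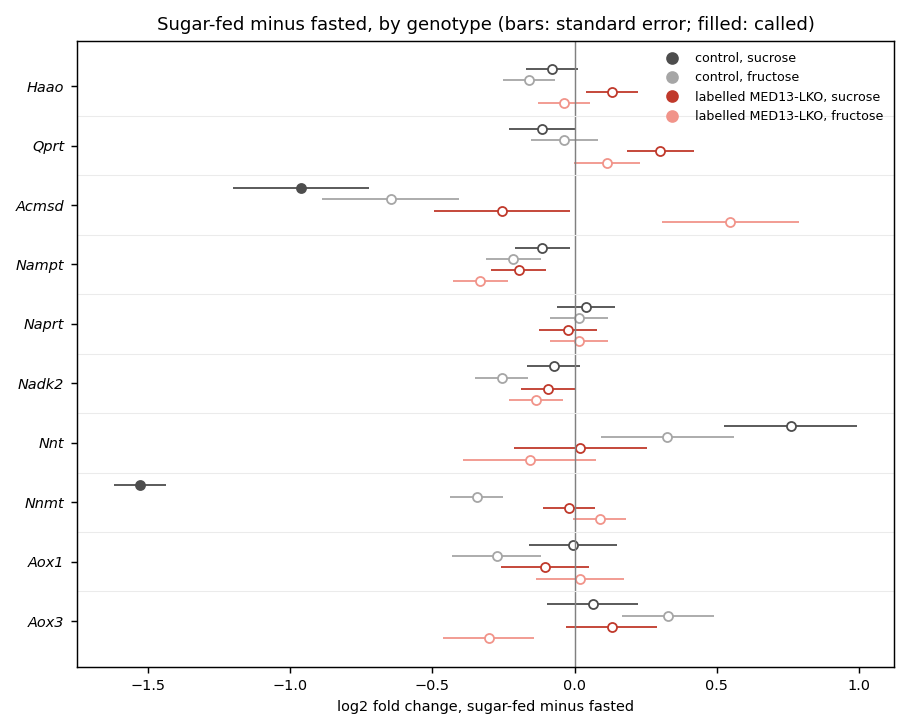
Log2 fold change, sugar-fed minus fasted, of the 10 genes (horizontal axis) in control mice (grey) and mice labelled MED13-LKO (red), with standard errors and filled circles for called changes. The called changes are those of Nnmt (-1.53) and Acmsd (-0.96) in control mice with sucrose.

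Levels of different genes were compared as the median normalized count per kb of the longest coding transcript. In control mice Haao was highest at 3930, followed by Aox3 at 2590, Nnmt at 2570, Nadk2 at 1130, Qprt at 962, Naprt at 844, Nampt at 837, Aox1 at 518, Acmsd at 244 and Nnt at 217. Only Haao and Aox3, and Nampt and Aox1, were neighbours in this order whose ranges over 6 mice did not overlap. In mice labelled MED13-LKO the order was Haao at 2590, Nnmt at 2380, Qprt at 1380, Aox3 at 1150, Nadk2 at 1060, Nnt at 949, Nampt at 794, Naprt at 713, Aox1 at 360 and Acmsd at 104. There the ranges of Nnmt and Qprt, of Naprt and Aox1, and of Aox1 and Acmsd did not overlap. Nnt was last of the 10 in control mice and sixth in mice labelled MED13-LKO.

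The other genes of NAD metabolism were listed by role, with earlier results of these data known, so their values are also a description. Of 54 listed, 51 were in the table and 47 had a mean of at least 10 (Nmnat2, Nmrk2, Bst1 and Sarm1 were below it, and Pnp, Aox4 and Sirt5 were not analysed here). Over the diets, 21 of the 47 were called between genotypes, 7 of them higher with the MED13-LKO label and 14 lower, beside 25.3% of all genes called, 12.1% higher and 13.2% lower. The median log2 fold change of the 47 was -0.03. After rescaling to equal totals, which moved the median of all genes to 0.32, 27 were called higher and 4 lower. The 7 higher genes remained called, of the 14 lower genes Kyat1, Tdo2, Mat1a and Gnmt remained called, and 6 turned in sign (Afmid, Naxd, Mocos, Sirt7, Glud1 and Prdx3, at 0.01 to 0.12). In at least 1 of the 11 comparisons 28 of the 47 were called, and the values below are those of the 12 with the smallest adjusted p. With each mouse left out in turn, the calls over the diets held for all of these but Slc25a51, which was not called over the diets (-0.17).

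The list for the route from tryptophan to quinolinate held 9 genes, including aminotransferases such as Kyat1 that branch off the route. Over the diets 4 of the 9, Kyat1 among them, were lower and none was higher, beside 13.2% and 12.1% of all genes. Kyat1 and Tdo2 remained called after rescaling to equal totals, and Afmid was at 0.07. Kyat1, a kynurenine aminotransferase that leads away from NAD, had 1414 to 2103 in control mice and 756.6 to 875.6 in mice labelled MED13-LKO, with no overlap. Its log2 fold change was -1.04 ± 0.06 (adjusted p = 2.6e-06 by limma, Benjamini-Hochberg), and it was called in all 3 diets. Tdo2, the dioxygenase that opens the tryptophan ring, had 61628 and 63643 in fasted control mice, 25481 and 30926 after sucrose and 29545 and 33085 after fructose, against 35712 and 34274, 20987 and 21546, and 23920 and 19618 in mice labelled MED13-LKO. It was lower by -0.59 ± 0.07 over the diets (adjusted p = 0.000275 by limma), and fasted control mice were well above all other libraries. Kynu, the kynureninase upstream of Haao, was lower by -0.37 ± 0.06 with no overlap (adjusted p = 0.00127 by limma), and after rescaling to equal totals was at -0.06 and not called. Afmid was the other gene called lower, and 44.86% of its 31-base subsequences occur in other genes, chiefly Gm20708.

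Of the 5 salvage genes tested, Nmnat3 and Nt5e were higher and Nmrk1 was lower over the diets. Of all genes, 12.1% were called higher and 13.2% lower. Nmnat3, the mitochondrial adenylyltransferase that forms NAD, had 22.6 to 55.7 in control mice and 60.4 to 98 in mice labelled MED13-LKO (log2 fold change 1.06 ± 0.14, adjusted p = 0.000603 by limma). Nt5e, the surface nucleotidase CD73 that can cleave nicotinamide mononucleotide to its riboside, had 67.1 to 184.6 and 258.7 to 415.5 (1.26 ± 0.21, adjusted p = 0.00225 by limma). Neither gene overlapped between the genotypes.

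All 3 methyl donor genes were lower over the diets, a direction called for 13.2% of all genes. By single diet, 3 were called lower fasted, 0 with sucrose and 1, Ahcy, with fructose. Of all genes, 8.98%, 6.03% and 7.69% were called in those diets in either direction. The fasted calls of Gnmt and Ahcy, and the fructose call of Ahcy, were lost on leaving out single mice. Mat1a, which makes S-adenosylmethionine in liver, had 46362 to 80031 in control mice and 35411 to 44128 in mice labelled MED13-LKO (-0.67 ± 0.09, adjusted p = 0.000497 by limma). Gnmt, the glycine methyltransferase that uses up excess S-adenosylmethionine, had 32180 to 50412 and 21479 to 29949 (-0.65 ± 0.09, adjusted p = 0.000767 by limma). Both were without overlap. Ahcy, which clears the product of methyl transfer, was lower by -0.42 ± 0.07 (adjusted p = 0.00136 by limma), at -0.11 and not called after rescaling to equal totals, and 71.42% of its 31-base subsequences occur in other genes, chiefly Gm4737.

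Among 13 consumers of NAD, Parp2, Parp3 and Parp4 were higher and Sirt7 was lower over the diets, beside 12.1% and 13.2% of all genes. Parp4, the vault polymerase, had 298.9 to 442.3 in control mice and 412.6 to 569.7 in mice labelled MED13-LKO (0.41 ± 0.05, adjusted p = 0.000537 by limma). The genotypes did not overlap within a diet, and overlapped across diets. Parp4 was also lower with either sugar than fasted in control mice, by -0.48 (sucrose) and -0.53 (fructose) (adjusted p = 0.0136 and 0.013 by limma). Those calls were lost without either fasted control mouse (-0.48 and -0.53), without control sucrose mouse 2 (-0.43) for sucrose and without control fructose mouse 1 (-0.50) for fructose. Sirt1, Sirt2, Sirt3, Sirt4, Sirt6, Parp1, Tnks, Tnks2 and Cd38 were not called between genotypes.

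Apart from Nnt, the makers and users of mitochondrial NADPH showed 1 higher and 3 lower of 10, beside 12.1% and 13.2% of all genes. Idh2, the mitochondrial isocitrate dehydrogenase that makes NADPH, had 1762 to 2345 in control mice and 2765 to 3248 in mice labelled MED13-LKO, with no overlap (0.49 ± 0.06, adjusted p = 0.000402 by limma). Txn2, mitochondrial thioredoxin, had 3037 to 3223 and 2255 to 2652, with no overlap (-0.34 ± 0.04, adjusted p = 0.000395 by limma), and was at -0.02 and not called after rescaling to equal totals. Prdx3 and Glud1 were the other genes called lower. Among 5 genes of NAD phosphorylation and repair, Nudt13 was higher and Naxd lower, beside the same shares of all genes. Mocos, which completes the molybdenum cofactor of the aldehyde oxidases, was lower.

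**Figure D5:**
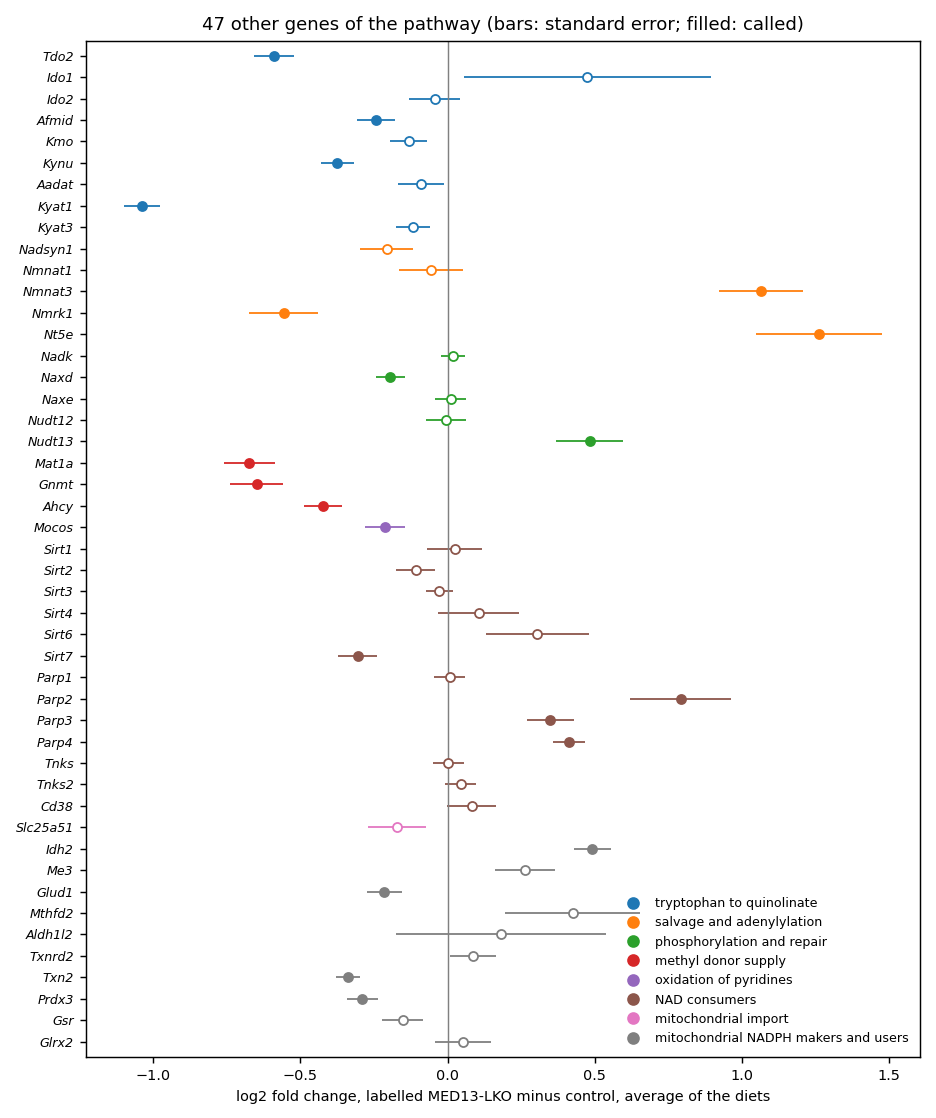
Log2 fold change between genotypes averaged over the diets (horizontal axis, with standard errors) of the 47 other genes of the pathway, coloured by role, with filled circles for the 21 called. Nmnat3 and Nt5e lie farthest to the right at 1.06 and 1.26, and Kyat1 farthest to the left at -1.04.

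By single diet, 11 of the 47 were called in fasted mice (1 higher, 10 lower), beside 8.98% of all genes. With sucrose 5 were called (3 higher, 2 lower), beside 6.03%, and with fructose 14 (7 higher, 7 lower), beside 7.69%. After rescaling to equal totals these splits were 15 and 4, 11 and 1, and 14 and 1. The fasted count became 3 without control fasted mouse 1 or fasted mouse 2 labelled MED13-LKO, and 6 without control fasted mouse 2. The sucrose count became 1 to 3 without either sucrose control mouse, either sucrose mouse labelled MED13-LKO or either fasted control mouse, and 9 without either fructose control mouse. The fructose count became 4 without either fructose mouse labelled MED13-LKO and 9 without control fructose mouse 2, and 1 with only the fructose libraries fitted.

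On feeding of control mice, 8 of the 47 were called with sucrose (1 higher, 7 lower), beside 8.57% of all genes, of which 600 were higher and 460 lower. With fructose 9 were called (all lower, and 1 higher and 3 lower after rescaling to equal totals), beside 5.6% of all genes, 345 higher and 347 lower. In mice labelled MED13-LKO 5 were lower and none higher with sucrose, beside 5.71% of all genes (276 higher, 430 lower), and likewise 5 with fructose, beside 6.53% (364 higher, 443 lower). The 2 control counts share the fasted control mice, and the counts became 2 and 1 without either of them. The sucrose count became 3 or 4 without either sucrose control mouse, and the fructose count 2 without control fructose mouse 1 and 5 without either sucrose mouse labelled MED13-LKO. In mice labelled MED13-LKO the sucrose count became 0 without fasted mouse 1 or either sucrose mouse and 2 without fasted mouse 2, and the fructose count 0 without either fasted mouse or fructose mouse 2 and 3 without fructose mouse 1. Tdo2 was lower in control mice by -1.16 ± 0.12 with sucrose (adjusted p = 0.000566 by limma) and, after fructose, to 0.499 times the fasted level (adjusted p = 0.00298 by limma). In mice labelled MED13-LKO it was lower by -0.72 for sucrose and -0.69 for fructose (adjusted p = 0.00916 and 0.0117 by limma), calls lost without either fasted mouse labelled MED13-LKO (-0.69 and -0.75 with sucrose, -0.66 and -0.72 with fructose), without either sucrose mouse (-0.70 and -0.74) or without fructose mouse 2 (-0.55). Slc25a51, the mitochondrial NAD carrier, had 2343 and 2979 in fasted control mice and 1013 and 1105 after sucrose, and 2347 and 2242 and 1054 and 1129 in mice labelled MED13-LKO. With sucrose it was lower by -1.32 ± 0.17 in control mice (adjusted p = 0.00175 by limma) and by -1.07 ± 0.17 in mice labelled MED13-LKO (adjusted p = 0.00757 by limma), the second call being lost without fasted mouse 1 (-1.04) or either sucrose mouse (-1.02 and -1.12) of that genotype. No interaction of genotype with sucrose or fructose was called among the 47 (10 and 7 at an unadjusted p under 0.05 in limma), nor was any difference between the sugars (7 unadjusted).

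The genes whose values followed Nnt most closely were ranked by Pearson correlation of log2(normalized count + 1) over the 12 libraries, as a description. They were Cd36 (0.98), Zfp704 (0.976), Gas6 (0.971), Acot2 (0.967) and Atp9a (0.966), which lie on other chromosomes than Nnt. Like Nnt, they had no value in control mice as high as the lowest in mice labelled MED13-LKO. This follows largely from ranking by likeness to Nnt, and no overlap in either direction held for 8.85% of all genes. Cd36, a fatty acid transporter, had 707 to 1240 in control mice and 5160 to 6840 in mice labelled MED13-LKO. For Nnmt the 5 closest genes were less alike, from Tmub1 (0.878) and Cyp39a1 (0.848) to Myh10 (0.816). The points share genotype, diet and library.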

How the data were processed

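Liver RNA-seq of 12 mice was analysed, with groups taken from the sample titles. The authors trimmed reads with Trim Galore 0.6.5, estimated transcript counts with kallisto 0.46.0 and used DESeq2 1.24.0, and the labels name build mm10. The transcript reference is not given in the sources used here. The deposited signal values are normalized counts per gene, and not whole reads: 51.9% to 58.9% of values under 20 were whole multiples of a library's step (within 0.05), and 87.3% to 99.0% in 2652 genes with 1 transcript. Count tests were therefore not run.

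From these, log2(normalized count + 1) was fitted in limma 3.58.1 (R 4.3.3) with the 6 groups as means, all 12 libraries and moderation that follows the mean, over 12366 genes with a mean of at least 10. Fold changes on this scale understate those of low genes. P-values were adjusted by Benjamini and Hochberg over these genes, and those under 0.05 are called. The fit was tested on simulated data. The members and lists were chosen with earlier results of these data known. Named were all 10 genes, the 12 other pathway genes with the smallest adjusted p, called genes near Nnt, and the 5 genes most like Nnt and Nnmt. Annotation was GENCODE M21 on GRCm38, with 16212 identifiers matched. Promoters came from RefSeq, and 1 of them is not reported here.

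Alternatives were pseudocounts of 0.1 and 10, no filter, equal 75th percentiles, a replicate block, the compared groups alone, each mouse left out, a 10 Mb window and, chosen after seeing the data, equal totals and blocks in the fructose groups. Python 3.11.15 with matplotlib 3.10.9 drew the figures.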

Additional observations from a re-analysis of the deposited data

Results flagged for a closer look

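Of the 10 genes, Nnmt had a response to sucrose that differed between the genotypes. The log2 fold change from fasted to sucrose-fed was -1.53 in control mice and -0.02 in mice labelled MED13-LKO, and the interaction term was 1.51 (called in limma at 0.05 over all genes). It was singled out because 2 genotypes under the same feeding contrast differed by a test of the difference itself. The gene was chosen with its values known, so the term is a description. Groups of 2 mice were too small to look for outlying mice.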

How the results depend on the processing

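With each mouse left out, the number of the 10 genes called ran from 6 to 8 over the diets, 3 to 7 fasted, 2 to 7 with sucrose, 3 to 4 with fructose, 1 to 3 for sucrose and 0 to 1 for fructose in control mice, 0 to 0 and 0 to 1 for the same in mice labelled MED13-LKO, 0 to 1 between the sugars, and 1 to 1 and 0 to 0 for the interactions with sucrose and fructose. For the 47 other genes the ranges in the same order were 17 to 22, 3 to 13, 1 to 9, 4 to 13, 2 to 9, 1 to 10, 0 to 6, 0 to 6, and 0 to 0 for the last 3, and 2 to 3 for genes near Nnt. Where 1 mouse was left in a group, it was assumed to vary like the others. With only the compared groups fitted, 1 of the 10 was called with fructose and 0 between the sugars, and of the 47, 1 was called between genotypes with fructose, 5 for sucrose and 0 for fructose in control mice, and 2 for fructose in mice labelled MED13-LKO. After rescaling to equal totals, the 47 gave 19 fasted, 12 with sucrose and 4 for fructose in control mice, the 10 gave 1 for sucrose in control mice, genes near Nnt gave 6, and Naprt reversed to 0.098. The cause of these changes was not tested. Of 2100 recomputed values of the 10 genes, 1963 moved by less than the spread between mice, 136 moved by more and 1 called value, that of Naprt, reversed. Many of these values could not move. A replicate block, a fit of the compared groups alone or leaving out a mouse of another group changes the adjusted p but not the fold change. The count therefore says little on how firm the calls are. Values that were not called, such as those of Nampt and Nadk2, also changed sign after rescaling to equal totals.

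Deviations of mice with equal replicate numbers in the sample titles correlated between -0.142 and 0.078 over 15 pairs of groups. The authors' library names number the fed mice otherwise than the titles do. Equal title numbers are therefore not equal library numbers between fasted and fed mice, and these values cannot show whether mice were paired. The blocks used the title numbers. With a replicate block the 47 gave 3 calls with sucrose. With a block in the fructose groups only, 0 of the 10 and 0 of the 47 were called with fructose, and with the numbers of 1 group crossed 5 of the 47 were called.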
